A study of Sus scrofa with 36 samples.

Results

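Ion channels, neurotransmitter-gated channels and ion pumps were described in the hippocampus of 36 piglets by their levels on porcine expression arrays. Members were the genes whose single annotated symbol begins with KCN, CACN, GABR, GRIA, GRIN, GRIK, GLR, CHRN, ATP1 or ATP2, or with HCN or SCN and a digit, and each gene was read from its probe set of highest mean over the 36 arrays. The rule took 49 of 6765 genes that had a probe set with exactly 1 symbol. Of these, 41 have symbols of channel subunit, receptor subunit or pump families, and their roles were not checked gene by gene. The other 8 were taken only through the first letters of their symbol (ATP10A, ATP13A1, ATP13A2, ATP23, GLRX, GLRX2, GLRX3 and GLRX5). All animals were male Landrace by Large White crosses that entered the study at 3 days of age and were sampled at postnatal day 38. The 12 control piglets received a pig milk replacer with its basal lactoferrin, an amount the labels do not give. The 12 medium-dose piglets had 0.6 g/L lactoferrin and the 12 high-dose piglets 1.2 g/L. Lactoferrin is an iron-binding glycoprotein of milk, and the series asks about its part in early neurodevelopment and cognition. The samples also carried a set code, S1 to S5, with 4, 10, 8, 9 and 5 arrays. What the code stands for is not given in the sources used here, and S1 held no medium-dose sample.

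Potassium channels set the resting potential and end the action potential, and their auxiliary subunits change how the pores open and where they sit. Voltage-gated calcium channels couple depolarisation to transmitter release, GABA-A and glycine receptors carry inhibitory chloride current, and NMDA and nicotinic receptors admit cations. The sodium pump and the calcium pumps rebuild the ion gradients that these currents use. As classes, these channels, receptors and pumps serve hippocampal excitability and synaptic plasticity, and the part of single members was not tested.

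The values were log2 scale RMA values, in which a difference of 1 is a 2-fold change. The 36 array medians were 6.6 or 6.7. Averaged over its pairs, the correlation with other arrays ran from 0.961, in high-dose replicate 2, to 0.988. High-dose replicate 2 and control replicate 4 had been noted as standing apart in an earlier description of these data, and the tests were also run without both. By this correlation control replicate 10, at 0.973, lay below control replicate 4, at 0.976. Leaving out control replicate 10 alone gave 20 members that passed with the neuron mean and 17 with the oligodendrocyte mean. It gave 9 with the choroid plexus mean and 1 between set codes, against 19, 18, 10 and 2 with all arrays. The shares of all probe sets that passed without this array are not given here. Cell type content was read from marker lists, none of which is a list of hippocampal markers, so the region label was not tested. The neuron mean (12 markers measured, among them SNAP25, SYN1 and MAP2) was 11.58 ± 0.23 (SD, n = 36), the oligodendrocyte mean (16 markers, among them MBP and MAG) was 10.04 ± 0.29, and the astrocyte mean (10 markers) was 10.99 ± 0.10. The choroid plexus mean, over 6 markers including TTR, was 7.55 ± 0.19. These are bulk samples, so fewer cells of a type and less RNA per cell cannot be told apart. The labels number the replicates but do not describe how each animal was dissected, so p-values measure the spread between these samples.

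By symbol, the members came from potassium channels and their partners (22 genes), calcium channel partners (5), receptors (5), sodium pump beta subunits (3) and calcium pumps (6). The annotation reached few of the best known hippocampal subunits. Of 47 such subunits listed for this work, 12 had a probe set of exactly 1 symbol, and no gene of the sodium channel, HCN, AMPA, kainate or pore-forming calcium channel families was among the members analysed here. A mean at or above the 25th percentile of all probe sets, log2 4.92, was reached by 41 of 49 members (83.7%), against 89.2% of the 6765 genes. The 8 below it were ATP1B4, ATP2A3, CACNB2, GRIN1, KCNE2, KCNJ1, KCNJ2 and KCNN3, and they entered no test. GRIN1, the obligatory NMDA receptor subunit, had a mean of 4.82 ± 0.18 (SD, n = 36) and so lay just under that level. Levels of different probe sets depend on their probes and were not ranked against each other.

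**Figure D1:**
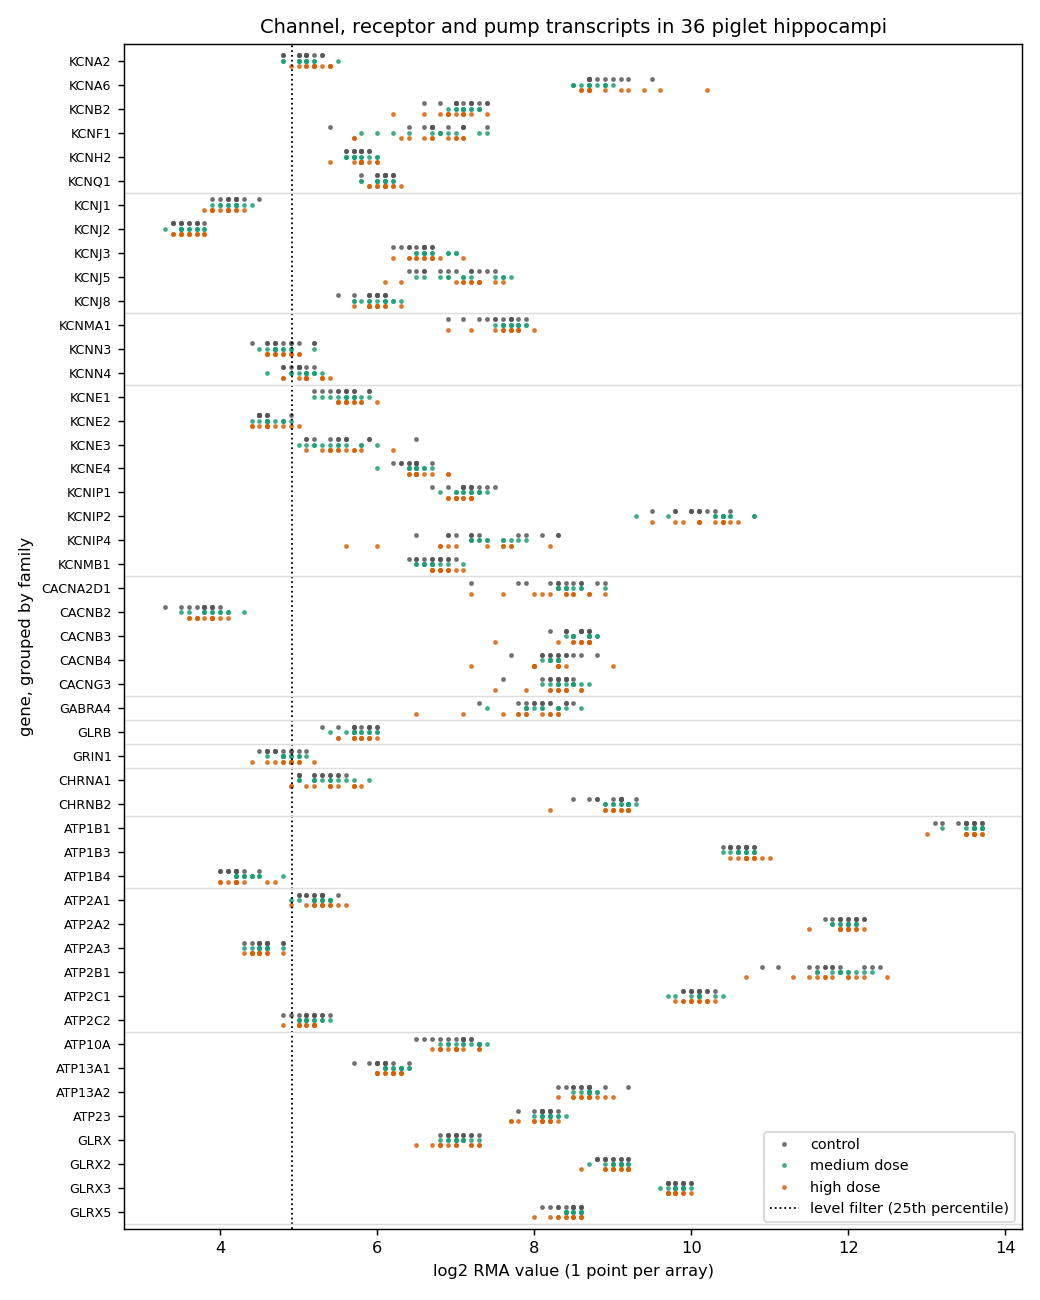
Log2 RMA value of each of the 49 members on each of the 36 arrays, with 1 point per array, coloured by feeding group and ordered by family, and the level filter as a dotted line. The 3 groups overlap for each gene shown, and ATP1B1 lies at 13.0 to 13.7 on all arrays while 8 genes have means left of the filter.

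Among the pumps, the beta subunits of the sodium pump were the only members of its family. ATP1B1, which folds and delivers the catalytic subunit to the membrane, read 13.54 ± 0.17 (SD, n = 36). ATP1B3 read 10.67 ± 0.13, and ATP1B4, placed in this family by its symbol, 4.26 ± 0.19. The calcium pumps of the endoplasmic reticulum and plasma membrane, ATP2A2 and ATP2B1, read 11.98 ± 0.14 and 11.81 ± 0.39. The Golgi pump ATP2C1 read 10.07 ± 0.15, and ATP2A1, known from fast muscle, 5.24 ± 0.16. ATP2B1 was the pump with the widest range, from 10.7 in high-dose replicate 2 to 12.5 in high-dose replicate 9.

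Among receptors, the beta subunit of neuronal nicotinic receptors, CHRNB2, read 9.03 ± 0.22 (SD, n = 36), and CHRNA1, the muscle alpha subunit, 5.35 ± 0.26. GABRA4, a subunit of extrasynaptic GABA-A receptors, read 7.99 ± 0.41, with 2.1 log2 units between its lowest and highest arrays. GLRB, the structural beta subunit of glycine receptors, read 5.76 ± 0.17.

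Potassium channel transcripts included pores and many partners. KCNA6, a delayed rectifier of the Shaker family, read 8.88 ± 0.35 (SD, n = 36), KCNMA1, the large-conductance calcium-activated channel, 7.61 ± 0.26, and KCNB2, a Shab-type delayed rectifier, 7.06 ± 0.25. KCNF1, a silent subunit that modifies Shab channels, read 6.67 ± 0.48, and KCNA2, another Shaker-family pore, 5.11 ± 0.18. The calcium sensors that bind Shal-type channels were KCNIP1 (7.12 ± 0.17), KCNIP2 (10.17 ± 0.35) and KCNIP4 (7.34 ± 0.58). Of the genes grouped by symbol as calcium channel partners, CACNA2D1 (8.34 ± 0.40), CACNB3 (8.56 ± 0.23), CACNB4 (8.23 ± 0.29) and CACNG3 (8.31 ± 0.25) were above the filter. CACNB2 was below it.

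The members varied between animals about as much as other genes, with a median SD of 0.18 log2 units over the 41 members tested and 0.17 over 18006 probe sets. The 8 members with the largest SD were KCNIP4, KCNF1, GABRA4, CACNA2D1, KCNJ5, ATP2B1, KCNA6 and KCNIP2. KCNIP4 ran from 5.6 in high-dose replicate 7 to 8.3 in 2 arrays, a range of 2.7 log2 units. High-dose replicate 2 alone held the lowest value of GABRA4 (6.5), ATP1B1 (13.0), ATP2A2 (11.5), ATP2B1 (10.7), CHRNB2 (8.2), CACNB3 (7.5), CACNB4 (7.2), CACNG3 (7.5) and KCNB2 (6.2), and the highest value of KCNA6 (10.2).

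Feeding lactoferrin was set against the basal milk replacer to ask whether these transcripts differ with dose. No member passed at either dose, and the same was true of all 18006 probe sets (0% in each contrast), by limma with Benjamini-Hochberg adjustment at 0.05. The median of the 41 differences was 0.03 for the medium dose and 0.03 for the high dose, against 0.00 over all probe sets in both. Both dose contrasts share the 12 control piglets. At an unadjusted p below 0.05 there were 4 members at the medium dose, all higher, where 6.93% of all probe sets reached that level. At the high dose there were 2, both higher, where 4.94% did. High minus medium dose had 1 higher and 1 lower, where 5.98% did, and the test of any difference between the 3 groups had 2, where 5.89% did.

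The channel with the largest medium-dose difference was KCNIP2. Its lowest, median and highest values were 9.5, 10.05 and 10.5 in controls, 9.3, 10.4 and 10.8 at the medium dose, and 9.5, 10.2 and 10.6 at the high dose. The 3 groups overlapped over most of their range, although 10 of 12 medium-dose piglets lay above the control median. The medium-dose difference was 0.29 (SE 0.13), and it did not pass with limma (adjusted p = 0.693). Without high-dose replicate 2 and control replicate 4 it was 0.33 (adjusted p = 0.649).

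KCNJ3, a pore of the G-protein-gated inward rectifier, ran over 6.2, 6.6 and 6.7 in controls and 6.5, 6.65 and 7.0 at the medium dose. Its groups overlapped, with a difference of 0.19 (SE 0.08, adjusted p = 0.669 with limma). Of 12 medium-dose piglets, 6 lay above the control median of KCNJ3. KCNMA1 had lowest, median and highest values of 6.9, 7.55 and 7.9 in controls and 7.5, 7.7 and 7.9 at the medium dose, so the low control arrays had no counterpart there. Its difference was 0.20 (SE 0.10), with 11 of 12 medium-dose piglets above the control median and a limma adjusted p of 0.743. Without the same 2 arrays it was 0.17 (adjusted p = 0.689). KCNQ1, a voltage-gated potassium channel, had a medium-dose difference of -0.09 (SE 0.05, adjusted p = 0.747 with limma).

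ATP1B3 ran over 10.4, 10.65 and 10.8 in controls and 10.5, 10.7 and 11 at the high dose. It had the smallest p of the high-dose contrast, with a difference of 0.13 (SE 0.05), 10 of 12 piglets above the control median and a limma adjusted p of 0.976. KCNE4, an auxiliary subunit of voltage-gated potassium channels, differed by 0.14 (SE 0.07) and did not pass. Its median was 6.5 in both groups, and 4 of 12 high-dose piglets lay above that of controls. Without high-dose replicate 2 and control replicate 4 the KCNE4 difference was 0.08, and its other probe set differed by 0.02 over all arrays. KCNMB1, a beta subunit of the KCNMA1 channel, had the smallest p between the doses. It ran over 6.5, 6.7 and 7.1 at the medium dose and 6.7, 6.8 and 7.1 at the high dose, a difference of 0.17 (SE 0.07, adjusted p = 0.811 with limma).

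GABRA4 and KCNIP4 had the largest high-dose differences in size, both negative, and neither passed. GABRA4 ran over 7.3, 8.1 and 8.5 in controls and 6.5, 7.9 and 8.3 at the high dose, with the low end set by high-dose replicate 2. Its high-dose difference was -0.27, with a 95% interval whose lower bound was -0.61. KCNIP4 ran over 6.5, 7.25 and 8.3 in controls and 5.6, 7.2 and 8.2 at the high dose, and its difference was -0.40, with an interval from -0.85 to 0.05. Of 12 high-dose piglets, 4 lay above the control median for GABRA4 and 6 for KCNIP4. Without high-dose replicate 2 and control replicate 4 the high-dose differences were -0.22 for GABRA4 and -0.37 for KCNIP4, both at a limma adjusted p of 0.999. KCNB2 had a high-dose difference of -0.19 (SE 0.09, adjusted p = 0.976 with limma). Without the same 2 arrays that of KCNB2 was -0.20, with a 95% interval from -0.35 to -0.04 (limma adjusted p = 0.999).

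A missed threshold does not show that the groups are alike, so the intervals matter. At the medium dose the 95% intervals of all 41 members lay within 1.5-fold, with extremes of -0.49 for KCNF1 and 0.56 for KCNIP2. At the high dose 39 of 41 did, and between the doses 39 of 41 did. By family the medium-dose medians were -0.05 for 6 voltage-gated potassium pores, 0.17 for 3 inward rectifiers, 0.08 for 4 calcium channel partners, 0.06 for 2 sodium pump subunits and 0.02 for 5 calcium pumps. The oligodendrocyte mean was 9.88 ± 0.15 (SD, n = 12) at the medium dose, 10.12 ± 0.30 in controls and 10.11 ± 0.33 at the high dose. With the neuron and oligodendrocyte means in the model, again 0 members passed in each of the 3 contrasts.

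**Figure D2:**
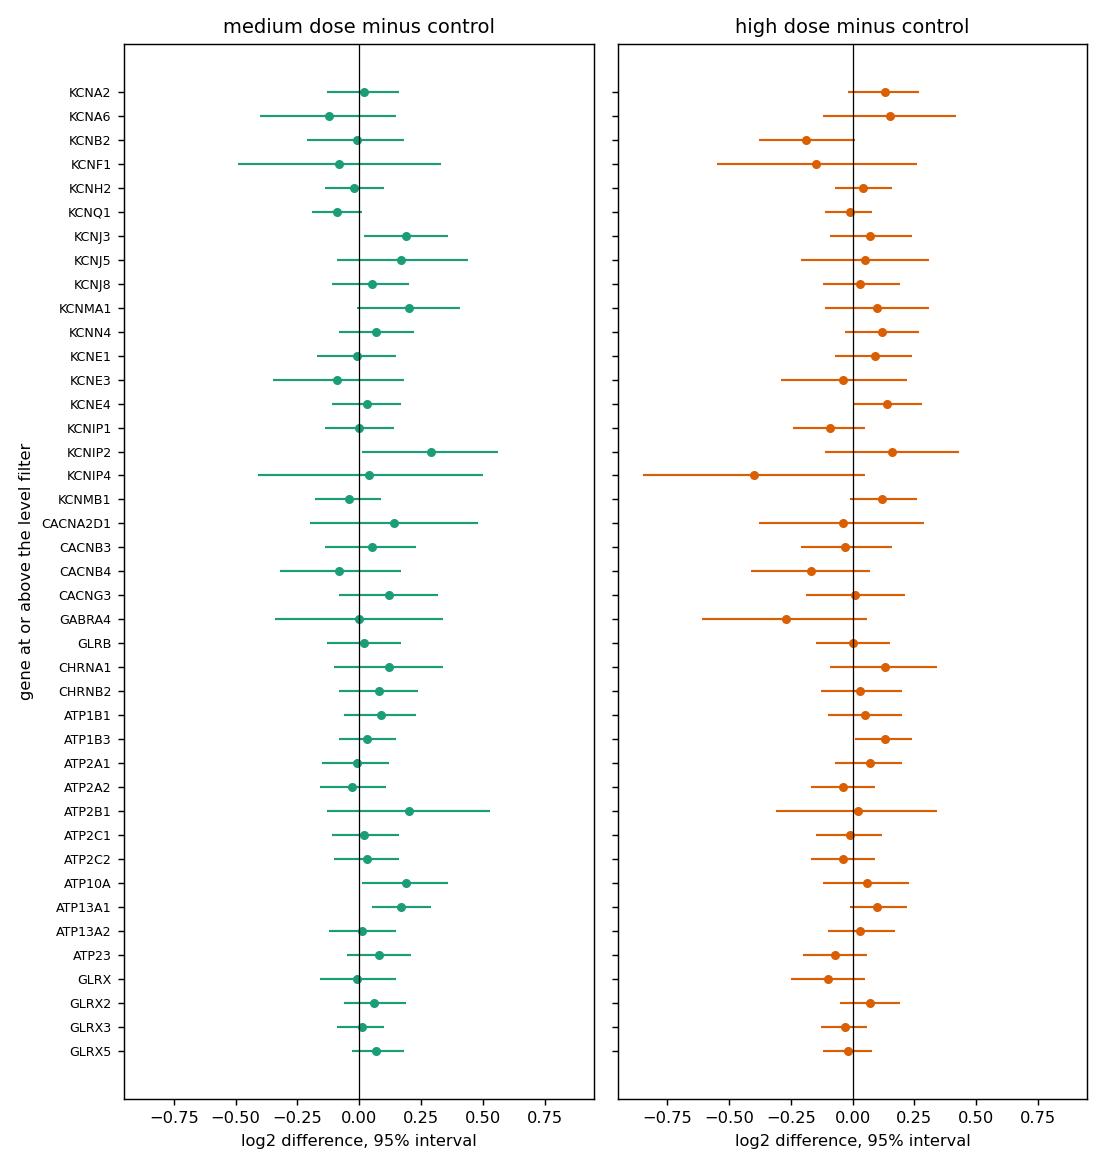
Difference from control in log2 units, with its 95% interval from limma, for the 41 members at or above the level filter, at the medium dose (left) and the high dose (right). The intervals of KCNIP2 at the medium dose reach 0.56 and that of KCNIP4 at the high dose reaches -0.85, and no member passed after adjustment.

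Set codes separated 2 members, KCNJ5 and GLRX5, beside 2.62% of all probe sets. KCNJ5, the partner of KCNJ3 in the G-protein-gated inward rectifier, averaged 7.30 ± 0.36 (SD, n = 4) in S1 and 7.37 ± 0.22 (n = 10) in S2. It averaged 6.68 ± 0.39 (n = 8) in S3, 6.96 ± 0.31 (n = 9) in S4 and 7.0 ± 0.37 (n = 5) in S5. The 10 arrays of S2 lay at 7.1 or above, and those of S3 at 7.2 or below. The limma F statistic was 6.55 (adjusted p = 0.033). The other probe set of KCNJ5, with a mean of 5.75, did not run with it (Pearson r of -0.24 over 36 arrays, as a description) and did not differ between codes (F 1.55, adjusted p = 0.541 with limma). KCNJ3 was not among the members that passed.

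GLRX5, a mitochondrial glutaredoxin of iron-sulfur cluster assembly, was lowest in S4, at 8.28 ± 0.16 (SD, n = 9), and averaged 8.44 to 8.54 in the other codes. Its groups overlapped, since S4 ran from 8.0 to 8.5 and S3 from 8.2 to 8.6. Its F statistic was 6.24 (adjusted p = 0.0376 with limma). Neither call held everywhere. Without the 4 arrays of S1, 0 members passed, where 0.322% of all probe sets did (58, against 472 with all arrays). KCNJ5 then had an F of 7.82 over 4 codes (adjusted p = 0.091) and GLRX5 one of 6.87 (0.132), by limma, so both F values were larger and neither passed. Without high-dose replicate 2 and control replicate 4 only GLRX5 passed, where 2.24% of all probe sets did. Without control replicate 1 there were 0 calls, where 0.744% of all probe sets passed. There was 1 call without any 1 of control replicates 2, 8, 9, 10 and 11, medium-dose replicates 3, 4 and 12, or high-dose replicates 7, 8, 9, 10 and 11. For these arrays the shares of all probe sets are not given here.

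**Figure D3:**
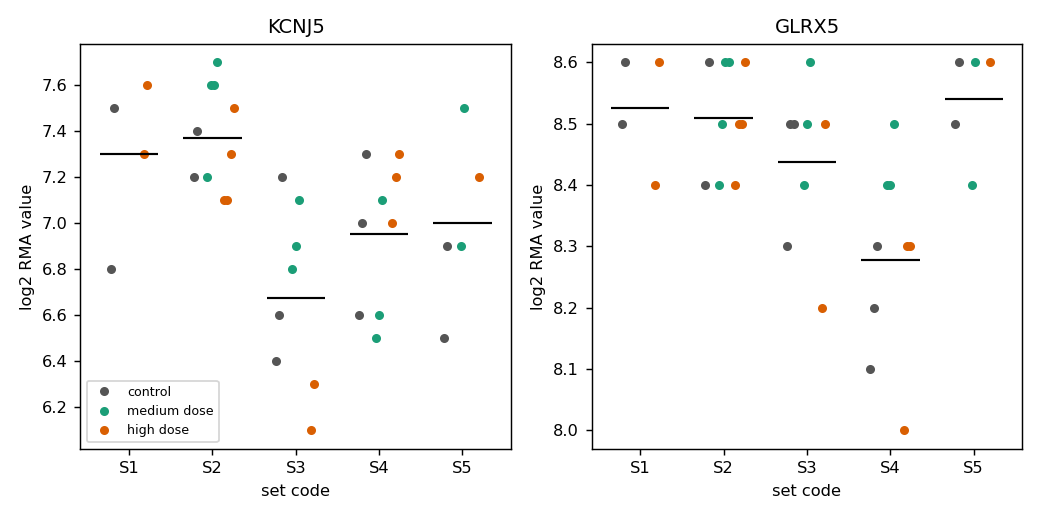
Log2 RMA values of KCNJ5 (left) and GLRX5 (right) by set code, 1 point per array coloured by feeding group, with the mean of each code as a line. KCNJ5 averages 6.68 in S3 and 7.37 in S2, GLRX5 averages 8.28 in S4, and S1 holds 4 arrays, none from the medium dose.

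The neuron mean varied from 10.74 to 11.93 between arrays, and many channel and pump transcripts rose with it. The slope is the change of a member in log2 units per log2 unit of the marker mean, with group and set code in the model, and no marker is itself a member. By limma, 16 of 41 members rose, beside 16% of all probe sets, and 3 fell, beside 15.2%. Members are the brightest probe set of genes with a symbol, while all probe sets include further sets and sets without a symbol. Shares over genes with a symbol are not given here. The median slope was 0.27 for the members and -0.04 for all probe sets. Pumps and receptors led by adjusted p: CHRNB2 at 0.68 (SE 0.10, adjusted p = 2.6e-06), ATP2A2 at 0.56 (SE 0.08, 2.76e-06) and ATP1B1 at 0.60 (SE 0.09, 8.68e-06). The steepest were GABRA4 at 1.25 (SE 0.24) and CACNA2D1 at 1.14 (SE 0.25).

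The 2 lowest values of CHRNB2, 8.2 and 8.5, came from high-dose replicate 2 and control replicate 4, and the other 34 arrays lay between 8.7 and 9.3. KCNMA1 (0.81), CACNB4 (0.93), CACNB3 (0.64), KCNB2 (0.62), KCNIP2 (0.80), ATP2C1 (0.41) and GLRB (0.36) rose too. The members taken by symbol letters that rose were GLRX2 (0.40), GLRX (0.35), ATP23 (0.33) and GLRX3 (0.21). KCNA6 fell with the neuron mean, with a slope of -0.92 (SE 0.20), and so did KCNH2 (-0.35, SE 0.09), a voltage-gated potassium channel best known from the heart, and ATP2A1 (-0.33, SE 0.12).

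KCNA6 had the clearest relation to the oligodendrocyte mean, which ran from 9.66 to 11.01. Its lowest, median and highest values were 8.7, 8.75 and 9.5 in controls, 8.5, 8.7 and 9.0 at the medium dose, and 8.6, 8.8 and 10.2 at the high dose. The groups overlapped, and 2 of the 3 highest values, 10.2 and 9.5, came from the 2 arrays with the highest oligodendrocyte means, high-dose replicate 2 (11.01) and control replicate 4 (10.81). The slope was 1.1 (SE 0.11, limma adjusted p = 2.37e-09). Its only companion upward was ATP2A1 at 0.28 (SE 0.10), so 2 members rose, beside 13.7% of all probe sets. ATP2A1 had a mean of 5.24, near the filter, and its other probe set, below the filter, did not run with it (r = 0.02).

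Downward there were 16 members, beside 14.9% of all probe sets. All 4 tested members grouped by symbol as calcium channel partners fell: CACNA2D1 at -1.18 (SE 0.18), CACNB4 at -0.91 (SE 0.12), CACNG3 at -0.56 (SE 0.13) and CACNB3 at -0.49 (SE 0.12). GABRA4 fell at -1.20 (SE 0.18). Of the potassium channel genes, KCNIP4 (-1.40), KCNF1 (-1.26), KCNB2 (-0.69), KCNMA1 (-0.68) and KCNIP1 (-0.41) fell. The other falling members were ATP2B1 (-0.76), CHRNB2 (-0.53), ATP1B1 (-0.40), ATP2A2 (-0.38), ATP23 (-0.38) and GLRB (-0.30).

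**Figure D4:**
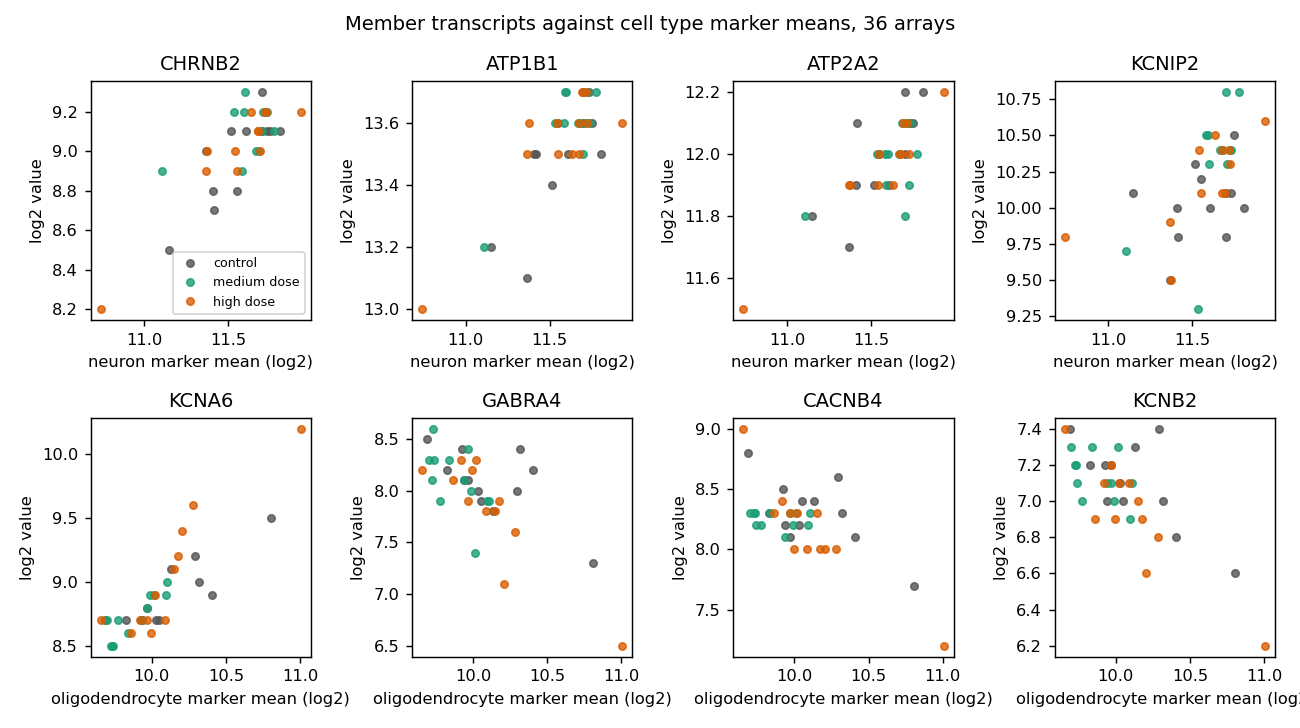
Log2 values of 4 members against the neuron marker mean (upper row) and of 4 members against the oligodendrocyte marker mean (lower row), 1 point per array, coloured by feeding group. High-dose replicate 2 is the point at a neuron mean of 10.74 and an oligodendrocyte mean of 11.01, and KCNA6 reaches 10.2 there while GABRA4 is at 6.5.

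The marker means themselves were related. Over 36 arrays the neuron and oligodendrocyte means had a Pearson r of -0.728 (permutation p = 2e-05, adjusted over 12 relations 0.00024) and a Spearman rho of -0.549 (p = 0.00062, adjusted 0.00744). Without the 2 arrays farthest from the median neuron mean, high-dose replicate 2 (10.74) and medium-dose replicate 1 (11.11), r was -0.652. Accordingly 11 members rose with neurons and fell with oligodendrocytes, 2 (KCNA6 and ATP2A1) did the reverse, and 0 passed in the same direction with both. In all, 17 of 41 passed with none of the 3 marker means, among them the inward rectifiers KCNJ3, KCNJ5 and KCNJ8. Shares of all probe sets with such joint calls were not counted, so these counts are no result particular to the members.

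Array controls moved with the marker means as well. For the second of 2 pairs of actin control probe sets, the difference between the 3' and 5' signal correlated with the neuron mean at r = 0.505 (permutation p = 0.0017, adjusted 0.00668) and rho = 0.226 (p = 0.18, adjusted 0.334). Without the 2 farthest arrays r was 0.364. For the relations of array controls, the 2 arrays left out are those farthest from the median of the control in question. Its correlation with the oligodendrocyte mean was r = -0.449 (permutation p = 0.0066, adjusted 0.0132) and rho = -0.221 (p = 0.19, adjusted 0.334), and r was -0.247 without 2 arrays. The hybridisation spike-in bioB correlated with the oligodendrocyte mean at r = 0.397 (permutation p = 0.02, adjusted 0.0341) and rho = 0.243 (p = 0.15, adjusted 0.334), with r = 0.187 without 2 arrays. With the neuron mean its r was -0.355 (permutation p = 0.038, adjusted 0.0573) and its rho -0.18 (p = 0.29, adjusted 0.436), with r = 0.013 without 2 arrays. With this actin difference and bioB as covariates, an alternative chosen after seeing the data, 10 members passed for neurons, where 17.3% of all probe sets did, and 12 for oligodendrocytes, where 13.6% did. For the first actin pair r was 0.073 with the neuron mean (permutation p = 0.67, adjusted 0.8) and 0.011 with the oligodendrocyte mean (p = 0.95, adjusted 0.947). With the choroid plexus mean bioB correlated at r = 0.495 (permutation p = 0.0023, adjusted 0.00687) and rho = 0.308 (p = 0.067, adjusted 0.207), with r = 0.238 without 2 arrays. The part of these controls in single slopes was tested only through such covariates.

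High-dose replicate 2 and control replicate 4 carried many of these calls. Without both, 7 members passed with the neuron mean, where 16.2% of all probe sets did in either direction: GLRX2 (0.68), ATP2A2 (0.50), KCNIP2 (1.26), ATP1B1 (0.53), ATP2C1 (0.55), CHRNB2 (0.44) and KCNH2 (-0.38). GABRA4 then had a slope of 0.65 (adjusted p = 0.155 with limma) and CACNA2D1 one of 0.36 (0.414). With the oligodendrocyte mean 5 passed, where 6.8% of all probe sets did: KCNA6 (1.04, adjusted p = 3.3e-05), CACNB4 (-0.63), GABRA4 (-0.88), KCNB2 (-0.50) and KCNIP1 (-0.39). Leaving out high-dose replicate 2 alone gave 10 neuron and 12 oligodendrocyte calls, where 17.2% and 15.0% of all probe sets passed, against 31.3% and 28.6% with all arrays. Without S1, the code that holds high-dose replicate 2, the counts were 9 and 14, where 17.6% and 16.7% of all probe sets passed.

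With the other 2 marker means in the model, an alternative chosen after seeing the data, CHRNB2 (0.56), ATP2A2 (0.48), ATP1B1 (0.57), GLRX2 (0.51) and ATP2C1 (0.57) passed with neurons, where 4.4% of all probe sets did. With oligodendrocytes 8 passed, where 6.58% of all probe sets did, among them KCNA6 (1.12), KCNF1 (-1.74), KCNB2 (-0.69) and CACNB4 (-0.70). In that model the neuron slope of KCNA6 was 0.10 (limma adjusted p = 0.834), the opposite sign of its slope with 1 mean.

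**Figure D5:**
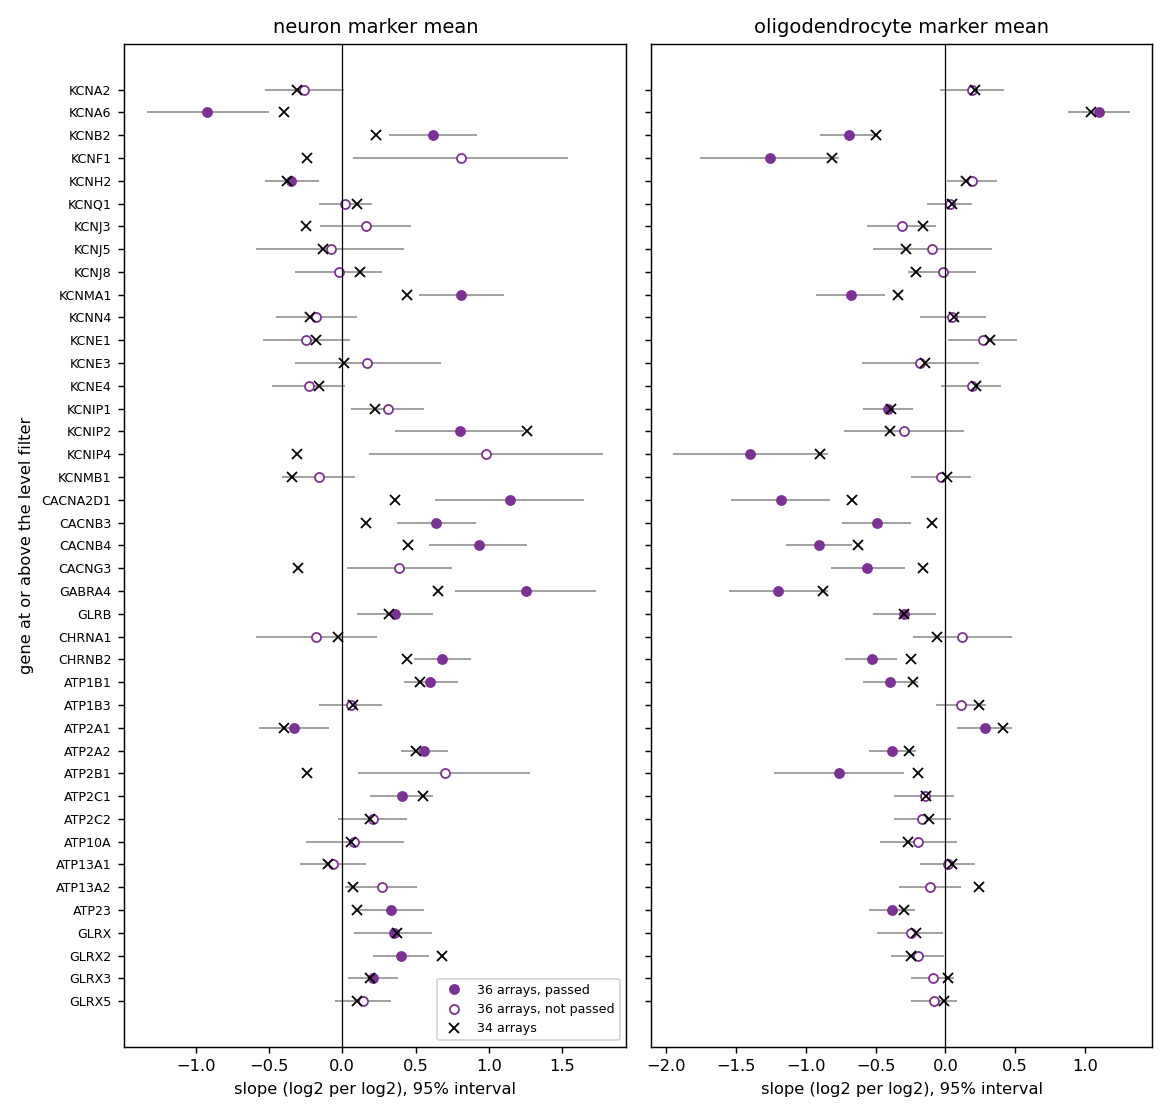
Slopes of the 41 members on the neuron mean (left) and the oligodendrocyte mean (right) in log2 per log2 with 95% intervals, filled where they passed in 36 arrays, and crosses for the slope in 34 arrays without high-dose replicate 2 and control replicate 4. KCNA6 keeps a slope of 1.04 on the oligodendrocyte mean in 34 arrays, while GABRA4 moves from 1.25 to 0.65 on the neuron mean.

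With the choroid plexus mean, 8 members fell, beside 8.97% of all probe sets, and 2 rose, beside 6.76%. The falling members were GABRA4 (-1.35), KCNIP4 (-1.35), CACNA2D1 (-1.25), CACNB4 (-0.87), KCNMA1 (-0.68), CACNB3 (-0.67), ATP2A2 (-0.46) and ATP1B1 (-0.45), and KCNA6 (0.98) and ATP2A1 (0.49) rose. No member passed without high-dose replicate 2, or without S1, where in each case 1 of 18006 probe sets did (0.00555%, against 15.7% with all arrays). Without high-dose replicate 1, 5 passed, where 9.11% of all probe sets did. The choroid plexus and neuron means correlated at r = -0.557 (permutation p = 0.00053, adjusted 0.00318) and rho = -0.407 (p = 0.014, adjusted 0.0848). Without the 2 arrays farthest from the median neuron mean r was -0.407. With the other 2 means in the model, 0 members and 0.00555% of all probe sets passed.

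As a description of 36 arrays, the 16 members that rose with neurons had a median Pearson r of 0.40 over their 120 pairs, from -0.06 (KCNIP2 and ATP23) to 0.84 (CACNB4 and KCNB2). GABRA4 and CACNA2D1 had r = 0.78 and ATP1B1 and ATP2A2 r = 0.74, whereas KCNA6 and GABRA4 had r = -0.81. These pairs share the same 36 arrays. Without high-dose replicate 2 and control replicate 4 the median over the 120 pairs was 0.23. Over those 34 arrays r was 0.70 for CACNB4 and KCNB2, 0.62 for GABRA4 and CACNA2D1, 0.59 for ATP1B1 and ATP2A2, and -0.62 for KCNA6 and GABRA4.

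Several genes could be read from a further probe set. There were 29 such probe sets, 15 of them with both sets past the filter, and of these 6 had r above 0.5 and 4 below 0.2. The further sets of ATP1B1 (r = 0.81) and CHRNB2 (r = 0.82) passed with the neuron mean too, at slopes of 0.94 and 0.52. For ATP2A2, 2 further sets ran with the chosen one (r = 0.74 and 0.78) and 1 ran against it (r = -0.46). That opposing set, with a mean of 4.96 just above the filter, passed downward with the neuron mean (slope -0.46, adjusted p = 0.00251 with limma). The second set of KCNJ3 passed where the first did not, with slopes of 0.82 for neurons and -0.85 for oligodendrocytes. That of KCNMA1 was unrelated to the first (r = 0.06) and did not pass. The second set of GLRX (r = 0.39) did not rise with neurons, at a slope of -0.02 (adjusted p = 0.951 with limma).

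Partners of these channels and pumps that are not members were counted from a list of 86 genes, of which 33 were tested. In the 3 dose contrasts 0 passed. With the neuron mean 14 rose, beside 16% of all probe sets, and 0 fell, beside 15.2%. Among the risers were NSF (0.90), which recycles the vesicle fusion machinery, the sodium channel binding factors FGF12 (0.88) and FGF13 (0.80), the endoplasmic calcium release channel RYR2 (0.91) and the kinase subunit CAMK2B (0.90). With the oligodendrocyte mean 15 fell, beside 14.9% of all probe sets, and 2 rose, beside 13.7%. The risers were ANK3 (0.71), which anchors sodium and potassium channels at the axon initial segment and nodes, and GABARAP (0.20), a GABA-A receptor trafficking protein. With the choroid plexus mean 13 fell, beside 8.97% of all probe sets, and 1, PICK1 (0.38), rose, beside 6.76%. Leaving out high-dose replicate 2 alone left 9 of the list with neurons, 9 with oligodendrocytes and 0 with the choroid plexus mean. In those fits 17.2%, 15% and 0.00555% of all probe sets passed, against 31.3%, 28.6% and 15.7% with all arrays. Leaving out high-dose replicate 1 or control replicate 10 alone left 9 or 8 with the choroid plexus mean. FXYD5, a sodium pump partner, was the single gene of the list that differed between set codes (F 7.64, adjusted p = 0.0207 with limma). Of all probe sets 2.62% did. In the list 0 passed without control replicate 1, control replicate 2 or high-dose replicate 2, the last with 1.81% of all probe sets. Shares for the other arrays left out are not set beside these partner counts.

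The 8 genes taken by symbol letters only were ATP10A, a lipid flippase, ATP13A1 and ATP13A2, transporters of the endoplasmic reticulum and lysosome, ATP23, a mitochondrial metallopeptidase, and 4 glutaredoxins, which are thiol redox enzymes. ATP13A1 had the smallest p of any member in the medium-dose contrast. It ran over 5.7, 6.05 and 6.4 in controls and 6.1, 6.25 and 6.4 at the medium dose, overlapping ranges with 12 of 12 medium-dose piglets above the control median. Values were rounded to 1 decimal, and the lowest medium-dose value, 6.1, lay just above that median of 6.05. The difference of ATP13A1 was 0.17 (SE 0.06, adjusted p = 0.579 with limma). ATP10A differed by 0.19 (SE 0.09) at the medium dose, and ATP23 by -0.14 (SE 0.07) between the doses, and neither passed. Without these 8 genes, 12 of 33 channels, receptors and pumps rose with neurons and 3 fell, beside 16% and 15.2% of all probe sets. With oligodendrocytes 15 of them fell and 2 rose, beside 14.9% and 13.7%.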

How the data were processed

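The values the authors deposited are on a log2 scale and rounded to 1 decimal. The submitters' processing notes name RMA and Affymetrix Expression Console 1.1 as the tools. RMA forces arrays to a common distribution, so a shift shared by most genes would not show, and rounding limits differences in genes of small spread. Precision is limited by how many arrays there were. Gene symbols came from the array's GEO annotation. Of 49 members, 46 had the same symbol under their gene ID in the RefSeq table of Sscrofa11.1.

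Of 23999 probe sets besides 124 array controls, 18006 with a mean at or above the 25th percentile were tested in R 4.3.3 with limma 3.58.1 (lmFit, eBayes, two-sided, Benjamini-Hochberg over 18006, threshold 0.05). The model held feeding group and set code over all 36 arrays, and marker means were added 1 at a time for slopes. Correlations used 100000 permutations, two-sided, adjusted over 12 relations. Named were members that passed, a list of main hippocampal subunits, the 8 of largest SD, and genes taken by symbol letters. Where fewer than 10 passed, some but not all of the 10 smallest p were named. Partner genes named, and family medians, were picked as examples. Members, lists and tests were chosen with earlier results of these data known. The model was also run on simulated arrays with independent noise and large known changes, without set effects or outlying arrays. That run cannot speak for small differences or for slopes that rest on few arrays.

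Alternatives were other level filters, further normalisation, array weights, a robust trended fit, no set block, a replicate block and 2 groups alone. Others were leaving out arrays or sets, and the mean of a gene's probe sets. Marker means, actin 3'-5' differences or bioB were covariates for slopes, and the first actin difference for set codes, all chosen after seeing the data. The neuron and oligodendrocyte means were also covariates for the feeding and set code comparisons. Replicate numbers did not pair the samples: of 36 pairs with the same number, 8 had deviations correlated above 0.1.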

Additional observations from a re-analysis of the deposited data

How the results depend on the processing

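In each feeding comparison 0 members passed under every setting tried, among them each array or set code left out, and the replicate block gave 0 as well. The replicate numbers do not pair the samples (median correlation of deviations 0.001, with 2 samples closest to their own number). Shares in brackets are of all probe sets passing under that setting, and the ranges leaving out 1 array are given without them. Where the 2 arrays farthest from the median were left out, the median was that of the marker mean in question. The set code count of 2 (2.62%) was 1 without high-dose replicate 2 and control replicate 4 (2.24%), 1 with a gene's probe sets averaged (1.52% of genes) and 0 without S1 (0.322%), and ranged from 0 to 3 leaving out 1 array. The neuron count of 19 (31.3%) was 7 without those 2 arrays (16.2%), 8 without the 2 arrays farthest from the median (11%), 9 without S1 (17.6%), 5 with the other 2 marker means (4.4%) and 10 with the second actin difference and bioB (17.3%), and 10 to 22 leaving out 1 array. The oligodendrocyte count of 18 (28.6%) was 5 without those 2 arrays (6.8%), 5 without the 2 farthest (6.8%) and 8 with the other 2 marker means (6.58%), and 12 to 21 leaving out 1 array. The choroid plexus count of 10 (15.7%) was 0 with array weights (0.0167%), without those 2 arrays (0%), and without the 2 farthest, without S1 and with the other 2 means (0.00555% each), 5 with the slope alone (11.6%), 4 without S2 (8.31%) and 1 with the second actin difference and bioB (2.15%), and 0 to 12 leaving out 1 array. The covariates of the slopes, and actin for set codes, were chosen after seeing the data. With the other 2 means the neuron slopes of KCNA6 and ATP23 turned to 0.10 and -0.01, and the choroid plexus slopes of KCNMA1 and ATP1B1 to 0.00 and 0.02. Without the 2 farthest arrays that of ATP1B1 was 0.03. The cause was not tested. Of 47 slopes that passed, 12 passed without those 2 arrays, 43 with quantile normalisation and 28 with array weights. The 50th percentile filter kept 28 members, against 41. The 5 members within 0.5 log2 units above the filter, among them ATP2A1, are the dimmest tested.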
